A study of Mus musculus with 12 samples.

Results

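The nuclear genes of the mitochondrial respiratory chain were examined in quadriceps muscle of 12 male dystrophic mice, each measured on its own Affymetrix array. A gene was taken when the platform's probe table paired a transcript cluster (the array's unit for a gene) with exactly 1 symbol, and that symbol began with Nduf, Uqcr, Cox4 to Cox8 or Atp5, or was Sdha to Sdhd, Cyc1 or Cycs; symbols with -ps or -rs were left out. This choice used names and no measured difference. It gave 98 clusters for 93 symbols, of 30412 tested clusters with 30086 symbols in all, and the brightest cluster stood for each symbol.

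All mice were utrn+/-;mdx animals of the C57BL/10 strain, that is, the mdx loss of dystrophin with 1 functional copy of the gene for its relative utrophin. Muscle was taken at 6 weeks of age from 4 groups of 3 mice, labelled as biological replicates. The untreated mice received normal chow. From 4 to 6 weeks of age, a group received 100 mg/kg per day of spironolactone with 20 mg/kg per day of lisinopril in pellets, and another 200 mg/kg per day of eplerenone with the same lisinopril dose in pellets. Spironolactone and eplerenone block the mineralocorticoid receptor, and lisinopril inhibits angiotensin-converting enzyme. The last group drank water that delivered 1.5 mg/kg per day of prednisolone, a glucocorticoid. No healthy muscle and no lisinopril alone is among these groups, so lisinopril's share in either combination cannot be told apart from the antagonist's. The design named pairwise comparisons of the groups.

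The respiratory chain sits in the inner mitochondrial membrane. Complexes I and II pass electrons to ubiquinone, complex III passes them to cytochrome c, complex IV reduces oxygen, and complex V, the ATP synthase, uses the proton gradient to make ATP. Most subunits are encoded in the nucleus, a few in the mitochondrial genome, and oxidative muscle fibres hold more of the chain than glycolytic fibres.

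The 93 genes comprised 33 subunits of complex I, 8 assembly factors of complex I, 4 subunits of complex II, 9 of complex III, cytochrome c itself (Cycs), 18 of complex IV, 16 of complex V and 4 paralogues or related factors that share a prefix. Every member had values on all 12 arrays and none was removed by a filter. Values are log2 signals as deposited, so a difference of 1 is a doubling on that scale. For Atp5g2, Atp5l and Cycs the brightest cluster's code named another chromosome than the RefSeq gene, so it may read a near-identical copy; their clusters on the gene's own chromosome gave prednisolone differences of 0.36, 0.41 and 0.31, against 0.42, 0.44 and 0.32 as reported. The mean of 9 members exceeded 16, the log2 ceiling of a 16-bit scanner. Their median prednisolone difference was 0.21, against 0.35 for the others.

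Array medians over all tested clusters ran from 5.7 to 5.81. Among the 11 markers of skeletal muscle fibres, Acta1 and Myh4 lay between 19.91 and 19.93 and Mylpf between 19.85 and 19.87. These lie at the top of the deposited scale, where a difference may not show, so a median over the 11 may miss one. The median deviation of the 11 from each gene's 12-array mean ran from -0.17 to 0.01 in the untreated arrays and was 0.04 in the prednisolone arrays. Their median prednisolone difference was 0.15, and 0.02 against untreated replicate 1 alone, where 10 of the 11 lay above 0. Des, which read 16.86 to 17.56, differed by 0.52, and by 0.60 against replicate 1 alone. The part of fibre content in the respiratory chain values was not tested. Untreated replicates 2 and 3 stood apart from replicate 1 in markers of neutrophils. Replicate 2 also stood apart from replicate 1 in markers of macrophages, and neither did in those of T cells together. For the 9 macrophage markers the median deviations were 0.07, 0.73 and 0.15 in untreated replicates 1, 2 and 3, and for the 5 T cell markers 0.25, 0.11 and 0.21. Across the 6 neutrophil markers the median deviation from each gene's 12-array mean was -0.32 in untreated replicate 1, 1.99 in replicate 2 and 2.31 in replicate 3, and between -0.88 and 0.35 in the 9 treated arrays. The summed level of these 6 genes ran from 9.93 to 13.94 (log2) in the untreated group, from 9.44 to 10.38 with spironolactone plus lisinopril, from 8.91 to 9.82 with eplerenone plus lisinopril and from 9.22 to 9.76 with prednisolone. Ly6g did not share this order, reading 5.61, 5.32 and 5.70 in untreated replicates 1, 2 and 3. Of the 6 only Retnlg passed the test with prednisolone, and no marker was listed at 0. Because this bears on every comparison with the untreated group, counts, class medians and the members past the threshold were also computed against untreated replicate 1 alone. Spironolactone plus lisinopril replicate 3 stood apart in fat markers. Its median deviation was 2.35 over the 6 adipocyte markers and 1.84 over the 4 brown fat markers, against at most 1.47 (prednisolone replicate 1) and 0.27 in the other 11 arrays. The brown fat gene Ucp1, which uncouples respiration from ATP synthesis, read 4.85, 4.86 and 4.85 untreated, 7.09, 6.74 and 10.67 with spironolactone plus lisinopril, 5.28, 5.73 and 5.22 with eplerenone plus lisinopril, and 4.89, 4.78 and 5.16 with prednisolone. Results that rest on this array are given with and without it.

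The same arrays were low in respiratory chain genes. Taking each member's deviation from its own mean over the 12 arrays, the median over the 93 members was 0.00 in untreated replicate 1, -0.23 in replicate 2 and -0.22 in replicate 3. It was -0.15, 0.01 and 0.04 in the 3 spironolactone plus lisinopril arrays and 0.09, 0.16 and -0.14 in the 3 eplerenone plus lisinopril arrays. With prednisolone it was 0.17, 0.23 and 0.06, so that all 3 of these arrays lay above all 3 untreated arrays, the eplerenone arrays overlapped both groups, and the spironolactone arrays overlapped the untreated arrays and lay below the lowest prednisolone array. Over all clusters the array medians stayed within 0.03 of 0. In untreated replicates 2 and 3 only 9 and 10 of the 93 members exceeded their own mean, against 45 in replicate 1 and 84, 84 and 64 in the prednisolone arrays. The part of neutrophils, macrophages or fat in these values was not tested. In whole muscle fewer cells of a type and less RNA per cell cannot be told apart.

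**Figure D1:**
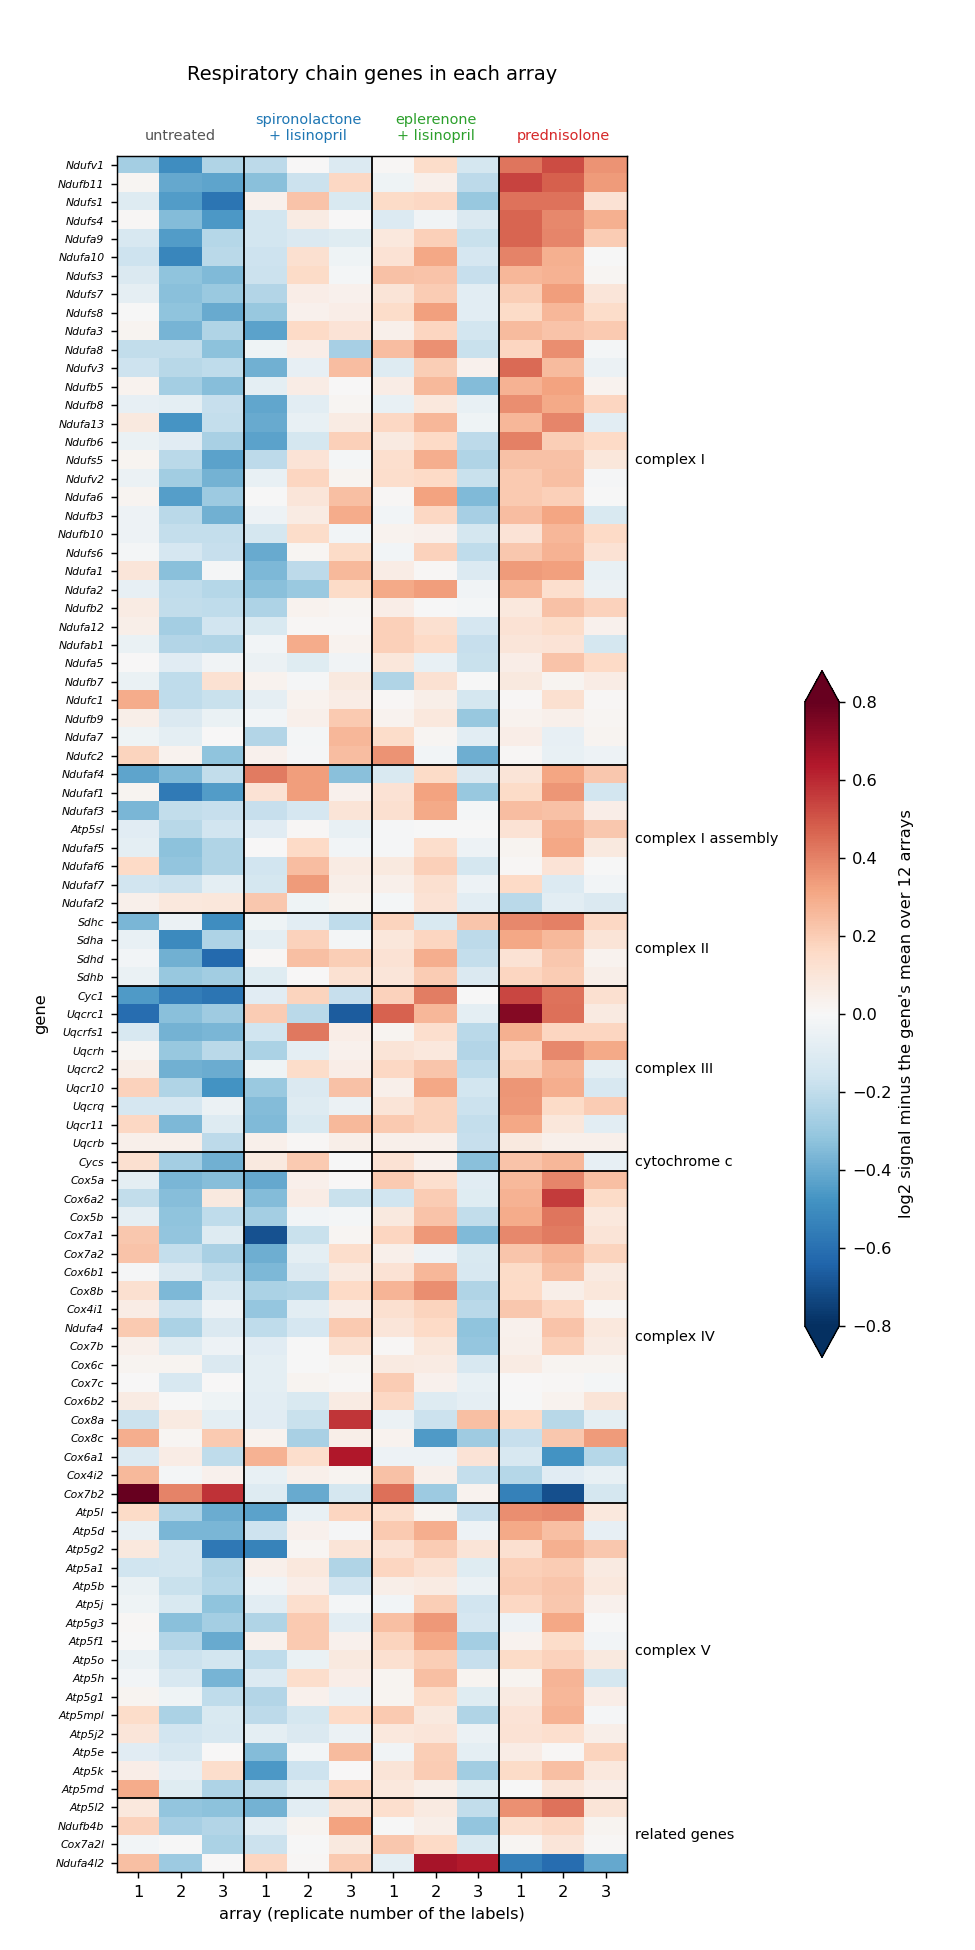
Heat map of the 93 genes (rows, ordered within each class by the prednisolone difference) in the 12 arrays (columns, by group and replicate), coloured by log2 signal minus the gene's mean over 12 arrays. Untreated replicates 2 and 3 are mostly blue and the prednisolone arrays mostly red. Genes that are blue in every prednisolone array include Cox7b2, Cox6a1 and Ndufa4l2.

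With prednisolone, respiratory chain transcripts lay above the untreated level across all 5 complexes, by a modest amount. Of the 93 members 11 rose and 1 fell at an adjusted p under 0.05 (limma, Benjamini-Hochberg over all 30412 clusters), and 81 did not pass. Of all clusters 3.22% rose and 3.17% fell, against 11.8% of the members that rose. The members' median log2 difference was 0.32, a fold of 1.25, against -0.01 over all clusters, and 87 of 93 lay above 0 (93.5%, against 47.3% of all clusters). At an unadjusted p under 0.05 the count was 48 higher and 3 lower, or 51.6% higher against 10.9% of all clusters, of which 10.8% were lower. In 49 members every prednisolone array exceeded every untreated array, 52.7% against 13.4% of all clusters. Only Cox7b2, or 1 of 93 members, reached the fold of 2 that the design names, as did 1.69% of all clusters.

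The number past the threshold rested on single arrays. It was 21 without untreated replicate 1, 6 without untreated replicate 2, 5 without untreated replicate 3, 3 without prednisolone replicate 1 and 2 without prednisolone replicate 2. The share of all clusters called moved the same way, from 6.39% as reported to 8.69%, 3.08%, 2.77%, 2.16% and 1.5% in these fits. Against untreated replicate 1 alone the members' median difference was smaller, at 0.14, and 73 of 93 lay above 0 (78.5%, against 49.8% of all clusters). The medians of complexes I, II, III and V were then 0.19, 0.24, 0.27 and 0.11. Of the 11 members that rose, Ndufv1, Cyc1 and Sdhc were still at least 0.69 above replicate 1, and Ndufs1, Ndufb11, Ndufs4, Ndufa9, Cox5a, Atp5b, Atp5sl and Ndufaf3 differed by 0.44, 0.44, 0.36, 0.48, 0.38, 0.22, 0.30 and 0.54. Cox7b2 differed by -1.34 (limma adjusted p = 0.0907).

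Complex I takes electrons from NADH and is the largest of the complexes. All 33 of its measured subunits had a positive prednisolone difference, with a median of 0.39 and a range of 0.00 (Ndufc2) to 0.77 (Ndufv1), and 5 rose. The 6 core subunits measured, which include carriers of the flavin and of iron-sulfur clusters, had a median of 0.44. In each of the 6 every prednisolone array exceeded every untreated array. Ndufv1 binds NADH and the flavin. Its log2 signal was 10.86, 10.63 and 10.89 in the untreated arrays, 10.92, 11.13 and 11.02 with spironolactone plus lisinopril, 11.14, 11.28 and 10.99 with eplerenone plus lisinopril, and 11.56, 11.65 and 11.49 with prednisolone. The prednisolone arrays stood above all 9 others. Ndufv1 rose by 0.77 ± 0.10 (SE, n = 3 per group; limma adjusted p = 0.00375), a fold of 1.71, and was 0.71 above untreated replicate 1 alone (adjusted p = 0.075).

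Ndufs1, the large iron-sulfur subunit, read 12.82, 12.48 and 12.34 untreated and 13.36, 13.36 and 13.04 with prednisolone, and rose by 0.71 ± 0.17 (SE; limma adjusted p = 0.0313). Untreated replicate 1 was the highest of its group and still below every prednisolone array. The other core subunits were Ndufs3, Ndufs7, Ndufs8 and Ndufv2, with differences of 0.45, 0.44, 0.44 and 0.38, none past the threshold. Ndufs7 lay just outside it (adjusted p = 0.0502), and Ndufaf3, described below, just inside (adjusted p = 0.047).

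Accessory subunits surround the core and are needed for its assembly or stability. The 27 measured had a median difference of 0.36, and 3 rose. Ndufb11, a small membrane subunit, read 11.58, 11.15 and 11.14 untreated and 12.10, 12.04 and 11.90 with prednisolone, a rise of 0.73 ± 0.15 (SE; limma adjusted p = 0.0194). Ndufs4, whose loss causes complex I deficiency, read 12.51, 12.15 and 12.04 untreated and 12.96, 12.88 and 12.78 with prednisolone, a rise of 0.63 ± 0.12 (adjusted p = 0.0123). Both genes showed the same order as Ndufs1, with untreated replicate 1 highest in its group and the groups not overlapping. Ndufa9, at the junction of the arms of the complex, read 13.30, 12.98 and 13.20 untreated and 13.89, 13.82 and 13.63 with prednisolone, a rise of 0.62 ± 0.12 (adjusted p = 0.0134). At the other end, Ndufb7, Ndufc1, Ndufb9, Ndufa7 and Ndufc2 had differences of at most 0.10, none past the threshold.

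Assembly factors help build complex I without staying in it. The 8 with a matching symbol had a median prednisolone difference of 0.36, and 2 rose. Atp5sl, whose current symbol Dmac2 names it as a factor for the membrane arm of complex I rather than a part of the ATP synthase, read 6.81, 6.68 and 6.75 untreated and 7.02, 7.19 and 7.12 with prednisolone. It rose by 0.36 ± 0.07 (SE; limma adjusted p = 0.0177), a small difference with a small spread. Ndufaf3 read 7.13, 7.30 and 7.31 untreated and 7.74, 7.73 and 7.55 with prednisolone, a rise of 0.42 ± 0.11 (adjusted p = 0.047). Here untreated replicate 1 was the lowest of its group, unlike in Ndufs1, Ndufb11 and Ndufs4. Ndufaf2 had the opposite sign, at -0.22 (adjusted p = 0.173).

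Complex II, succinate dehydrogenase, belongs to both the citric acid cycle and the chain. Its 4 subunits had the largest median of any complex, 0.48, and in all 4 the prednisolone and untreated arrays did not overlap. Sdhc, a membrane anchor, read 11.43, 11.75 and 11.30 untreated and 12.18, 12.20 and 11.96 with prednisolone, and rose by 0.63 ± 0.13 (SE; limma adjusted p = 0.0214). The flavin subunit Sdha differed by 0.50 ± 0.14 (adjusted p = 0.0543), the anchor Sdhd by 0.46 ± 0.16 (adjusted p = 0.113) and the iron-sulfur subunit Sdhb by 0.35 ± 0.11 (adjusted p = 0.0808), none past the threshold.

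Complex III and its partner cytochrome c carry electrons onward. All 9 subunits of complex III had positive differences, with a median of 0.37, and 1 rose. Cyc1, the cytochrome c1 subunit that hands electrons to cytochrome c, read 12.06, 11.96 and 11.93 untreated, 12.42, 12.69 and 12.33 with spironolactone plus lisinopril, 12.70, 12.92 and 12.51 with eplerenone plus lisinopril, and 13.05, 12.95 and 12.64 with prednisolone. All 9 treated arrays stood above the 3 untreated arrays, which lay close together. Cyc1 rose by 0.90 ± 0.14 with prednisolone (SE; limma adjusted p = 0.00586), a fold of 1.87, the most positive difference of any member, and was 0.82 above untreated replicate 1 alone (adjusted p = 0.148). Uqcrc1, a core protein that faces the matrix, read 14.86, 15.13 and 15.18 untreated and 16.20, 15.91 and 15.54 with prednisolone, a difference of 0.83 ± 0.23 that did not pass (adjusted p = 0.0578). Its prednisolone arrays spread more widely than those of Cyc1. The Rieske iron-sulfur subunit Uqcrfs1 differed by 0.50 (adjusted p = 0.0697), Uqcrc2 by 0.37 (adjusted p = 0.185) and Uqcrb by 0.10 (adjusted p = 0.608). Cycs differed by 0.32 ± 0.16 (adjusted p = 0.266).

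Complex IV, cytochrome c oxidase, had the lowest median of the complexes, 0.15, with 1 subunit higher and 1 lower. Cox5a, a common subunit, read 13.70, 13.41 and 13.44 untreated and 14.04, 14.17 and 14.02 with prednisolone, and rose by 0.56 ± 0.13 (SE; limma adjusted p = 0.0327). Cox5b differed by 0.47 (adjusted p = 0.0576) and Cox4i1 by 0.19 (adjusted p = 0.436). Against untreated replicate 1 alone the median of complex IV was 0.01, with 9 of 18 subunits above 0.

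Several complex IV subunits exist as isoforms of different tissues. The heart and skeletal muscle form Cox6a2 read 14.78, 14.64 and 15.06 untreated and 15.26, 15.54 and 15.13 with prednisolone (difference 0.49 ± 0.15, SE; limma adjusted p = 0.0911). The widely expressed form Cox6a1 read 13.83, 14.00 and 13.74 untreated, 14.22, 14.08 and 14.58 with spironolactone plus lisinopril, 13.90, 13.90 and 14.05 with eplerenone plus lisinopril, and 13.81, 13.46 and 13.71 with prednisolone. For Cox6a1 the spironolactone arrays were the highest, led by the array high in fat markers, and the prednisolone arrays were among the lowest. Cox8a, a widely expressed form too, also peaked in that array, at 12.50 against 11.71 to 12.17 in the others. Cox6a1 differed by 0.44 with spironolactone plus lisinopril (adjusted p = 0.194), by -0.20 with prednisolone (adjusted p = 0.46), and by -0.63 between prednisolone and spironolactone plus lisinopril (adjusted p = 0.059), none past the threshold. Without spironolactone plus lisinopril replicate 3 the first and last of these were 0.30 (adjusted p = 0.277) and -0.49 (adjusted p = 0.108). Within each array, Cox6a2 minus Cox6a1 was shifted from the untreated mean by 0.68 ± 0.37 with prednisolone (SD, n = 3; 0.48, 1.11 and 0.45), by -0.44 ± 0.38 with spironolactone plus lisinopril (-0.56, -0.01 and -0.75, the last in the array high in fat markers) and by 0.04 ± 0.23 with eplerenone plus lisinopril. The untreated arrays themselves ran from -0.33 to 0.35, below every prednisolone array, and no test was made of this ratio. For the other pairs the prednisolone shift was 0.07 ± 0.13 for Cox7a1 over Cox7a2, 0.21 ± 0.14 for Cox8b over Cox8a and 0.41 ± 0.18 for Cox4i1 over Cox4i2.

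The 4 complex IV isoforms known chiefly from other tissues (Cox4i2, Cox6b2, Cox7b2 and Cox8c) had a median prednisolone difference of -0.13, against 0.21 for the 14 muscle or common subunits. Cox7b2, a testis form, read 5.58, 5.09 and 5.27 untreated, 4.59, 4.29 and 4.55 with spironolactone plus lisinopril, 5.13, 4.40 and 4.72 with eplerenone plus lisinopril, and 4.15, 3.99 and 4.55 with prednisolone. It was the only member that fell, by 1.08 ± 0.20 on the log2 scale (SE; limma adjusted p = 0.0127). Its signal lay below the median of all clusters in every array, and no detection calls were used, so how far it stood above background is not known here.

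Complex V had a median prednisolone difference of 0.26, with all 16 subunits above 0 and 1 past the threshold. Atp5b, the catalytic beta subunit of the F1 head, read 14.88, 14.76 and 14.71 untreated and 15.14, 15.16 and 15.02 with prednisolone, and rose by 0.32 ± 0.08 (SE; limma adjusted p = 0.0465). The groups did not overlap, but the call held under only 7 of 23 alternative settings. The alpha subunit Atp5a1 differed by 0.34 (adjusted p = 0.0807). The c-ring genes Atp5g1, Atp5g2 and Atp5g3, which encode the same mature protein, differed by 0.20, 0.42 and 0.29, and the 9 genes of the membrane part and stalk had a median of 0.22.

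Among the 4 related genes none passed. Ndufa4l2, a hypoxia-inducible paralogue of the complex IV subunit Ndufa4, read 7.34, 6.81 and 7.10 untreated, 7.27, 7.11 and 7.31 with spironolactone plus lisinopril, 7.02, 7.76 and 7.73 with eplerenone plus lisinopril, and 6.55, 6.49 and 6.69 with prednisolone. Its prednisolone arrays were the 3 lowest of the 12. The difference was -0.51 ± 0.19 against untreated (SE; limma adjusted p = 0.151) and -0.93 against eplerenone plus lisinopril (adjusted p = 0.0585). Ndufa4 itself differed by 0.17 (adjusted p = 0.614).

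**Figure D2:**
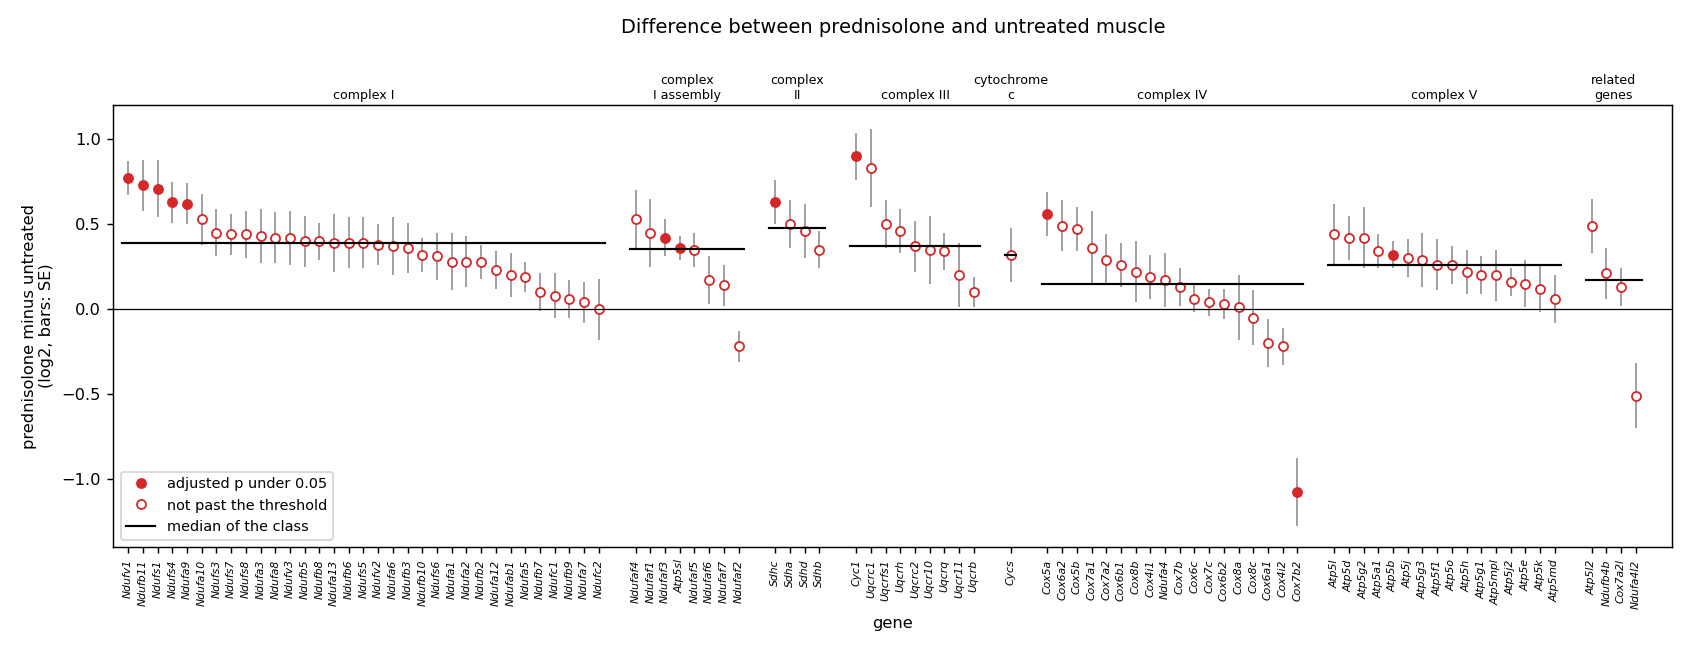
Log2 difference between prednisolone and untreated muscle for each of the 93 genes (vertical axis, bars show SE, 3 arrays per group), grouped by class on the horizontal axis, with filled points for an adjusted p under 0.05 and horizontal lines for class medians. The medians run from 0.15 for complex IV to 0.48 for complex II, and Cox7b2 is the filled point below 0.

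The complexes were also compared array by array, as median deviations from each gene's own mean. The medians over complex I were -0.03, -0.23 and -0.24 in the untreated arrays and 0.23, 0.27 and 0.04 in the prednisolone arrays. Those of complex II were -0.06, -0.35 and -0.39 against 0.24, 0.24 and 0.07, and those of complex III 0.01, -0.34 and -0.29 against 0.31, 0.27 and 0.07. In these 3 complexes untreated replicates 2 and 3 were the lowest arrays. Complex IV had the narrowest range, with 0.05, -0.12 and -0.09 untreated and 0.11, 0.18 and 0.08 with prednisolone. Complex V gave 0.00, -0.15 and -0.24 untreated and 0.12, 0.23 and 0.06 with prednisolone. In each of the 5 complexes every prednisolone array lay above every untreated array, and untreated replicate 1 was the untreated array nearest to them.

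**Figure D3:**
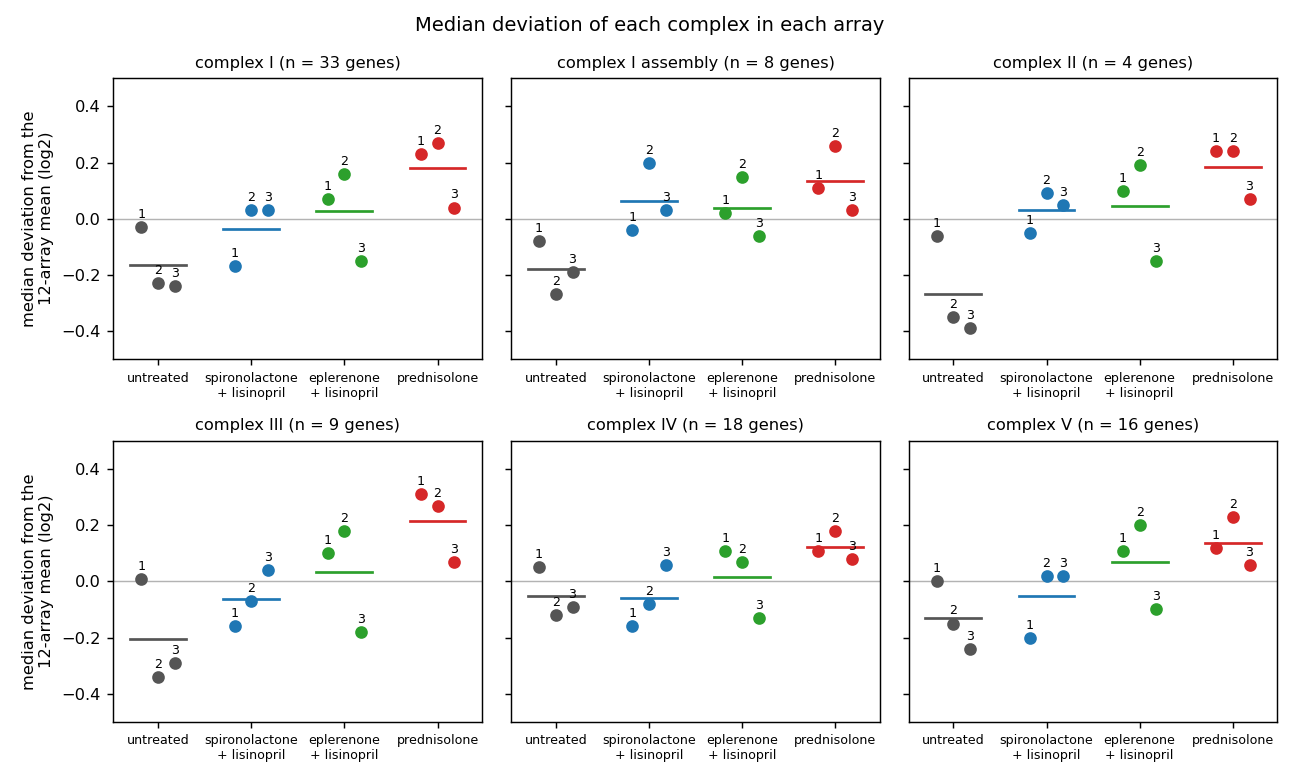
Median deviation of the genes of complexes I to V and of complex I assembly factors from their 12-array mean (log2, vertical axis) in each array (points, numbered by replicate) for the 4 groups, with horizontal lines for the mean of the 3 arrays. In each of these 6 panels untreated replicates 2 and 3 lie below replicate 1, and the prednisolone arrays lie above the untreated arrays.

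Neither antagonist combination moved a member past the threshold. With spironolactone plus lisinopril 0 of 93 members passed (limma adjusted p; 0.0822% of all clusters passed), and 10 were higher and 1 lower at an unadjusted p under 0.05 (6.37% and 9.84% of all clusters). The median difference was 0.12 (all clusters -0.04), with 75 of 93 above 0 (80.6%, against 40.8%). The medians were 0.14 for complex I, 0.26 for complex II, 0.12 for complex III, 0.07 for complex V, with complex IV at 0.00 after rounding. The difference of largest size was that of Cox7b2, at -0.84 (adjusted p = 0.154), and the most positive were 0.50 for Cyc1 (adjusted p = 0.178) and 0.49 for both Sdhd (adjusted p = 0.201) and the assembly factor Ndufaf1 (adjusted p = 0.267), the last chosen after its values were seen. Sdhd read 13.67, 13.31 and 13.07 untreated, 13.70, 13.93 and 13.89 with spironolactone plus lisinopril, 13.81, 13.98 and 13.50 with eplerenone plus lisinopril, and 13.81, 13.91 and 13.72 with prednisolone, so its spironolactone and prednisolone arrays covered nearly the same range. Against untreated replicate 1 alone the members' median was -0.03, with 41 of 93 above 0, and the medians of complexes I, III, IV and V were below 0. All clusters had the same median of -0.03 in this comparison, with 44.4% above 0 against 44.1% of the members. Without spironolactone plus lisinopril replicate 3, the array high in fat markers, the members' median was 0.06 with 58 of 93 above 0, that of complex IV was -0.11, and 1 member passed, the assembly factor Ndufaf4, at 0.70 (limma adjusted p = 0.0345). Its spironolactone arrays read 10.19, 10.11 and 9.44, the last within the untreated values of 9.35, 9.42 and 9.58. Ndufaf4 was chosen after its values were seen.

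With eplerenone plus lisinopril 0 of 93 members passed (limma; 0.0296% of all clusters passed), and 20 were higher and 2 lower at an unadjusted p under 0.05, or 21.5% higher against 6.11% of all clusters, of which 7.33% were lower. The median difference was 0.18 (all clusters -0.03), with 84 of 93 above 0 (90.3%, against 44.0%). Complex medians were 0.21, 0.35, 0.25, 0.08 and 0.17 for complexes I to V. The most positive value was again Cyc1, at 0.73 (adjusted p = 0.118), followed by Uqcrc1 at 0.63 (adjusted p = 0.287). Eplerenone replicate 3 was low, with only 8 of 93 members above their own mean against 75 and 81 in replicates 1 and 2. Against untreated replicate 1 alone the members' median was 0.05 (all clusters -0.01) and 58 lay above 0 (62.4%, against 46.9% of all clusters). Without untreated replicate 1, 1 member passed, Cyc1, at a difference of 0.77 with an adjusted p just under 0.05.

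**Figure D4:**
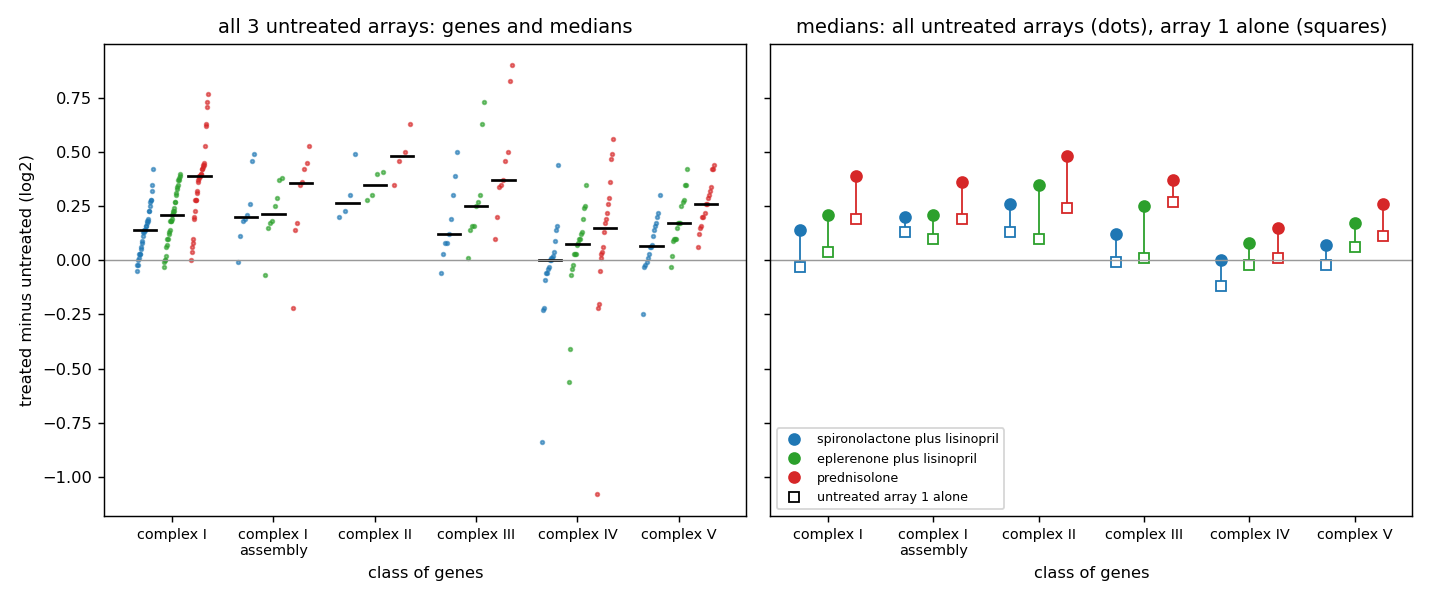
Log2 difference between each treatment and untreated muscle by class: the left panel shows genes as points with class medians as lines, using all 3 untreated arrays, and the right panel shows these medians (dots) beside those against untreated replicate 1 alone (squares). The medians against replicate 1 alone are lower in every class and treatment, such as 0.19 against 0.39 for complex I with prednisolone.

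Comparisons between treatments use the untreated arrays only for the estimate of the spread. Spironolactone plus lisinopril and eplerenone plus lisinopril contained the same lisinopril dose but different antagonist doses. Between them 0 members passed (limma; 0.0% of all clusters passed), with 1 higher and 1 lower at an unadjusted p under 0.05 (1.86% and 2.62% of all clusters). The median difference was -0.07, with 30 of 93 members above 0 (32.3%, against 44.5% of all clusters). The extremes were Uqcrc1 at -0.45 and Cox6a1 at 0.34. Without spironolactone plus lisinopril replicate 3 Cox6a1 differed by 0.20 (limma adjusted p = 0.803). The members' median was then -0.12, with 29 of 93 above 0.

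Between prednisolone and spironolactone plus lisinopril 1 member rose, Ndufv1, by 0.54 (limma adjusted p = 0.0438), where 0.372% of all clusters rose. There were 25 higher and 3 lower at an unadjusted p under 0.05 (8.84% and 7.45% of all clusters), the median difference was 0.20 and 79 of 93 lay above 0 (84.9%, against 58.9% of all clusters). The Ndufv1 call was lost when any single array other than untreated replicate 1 or 2 was left out, and with array medians set to 0, where Cox6a1 fell instead, by 0.70 (adjusted p = 0.0407). Between prednisolone and eplerenone plus lisinopril 0 members passed (limma; 0.608% of all clusters passed), with 10 higher and 2 lower at an unadjusted p under 0.05 (6.61% and 5.85% of all clusters). The median difference was 0.11, and the extremes were Ndufb11 at 0.52 (adjusted p = 0.171) and Ndufa4l2 at -0.93. Without eplerenone plus lisinopril replicate 1, Ndufa4l2 passed at -1.17 (limma adjusted p = 0.0225), and without untreated replicate 1, Ndufs4 passed at 0.46 (adjusted p = 0.0437). Across all 4 groups the limma F-test called 2 members, Ndufv1 (adjusted p = 0.0189) and Cyc1 (adjusted p = 0.0284), where 1.93% of all clusters were called, and 34 at an unadjusted p under 0.05 (19.6% of all clusters). Without untreated replicate 2 or 3 it called 1, without prednisolone replicate 1 or 2 it called 0, without untreated replicate 1 it called 5, without spironolactone plus lisinopril replicate 1 it called 1 and without replicate 3 of that group 4.

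Promoter sequence is shown because most members lay on the same side of 0. RefSeq promoter windows (GRCm38.p6, 250 bases before to 50 after a start) were matched to 75 members with 80 windows and searched on both strands. The letters were GCGCA, any base and GCGC for nuclear respiratory factor 1 (NRF1), CCGGAAG for ETS factors such as GABP, TCAAGGTCA for estrogen-related receptors and, for YY1, the 10 letters in capitals in the stretches of Ndufa9 and others below. All are factors with known roles in respiratory chain genes. For the glucocorticoid receptor they were AGAACA, any 3 bases and TGTTCT. The NRF1-type sequence was found in 21.2% of members' windows against 4.6% of all 32851 windows, the ETS type in 22.5% against 8.86%, the estrogen-related receptor type in 2.5% against 0.423% and the YY1 type in 8.75% against 0.852%. The glucocorticoid receptor sequence was in none of the members' windows and in 0.00913% of all. Matches of different motifs overlapped in 0 of the members' windows. A match describes letters and is not evidence of binding.

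Of the 11 members that rose, 8 had a window. The YY1 type was present in 3 of these (Ndufa9, Ndufs4 and Atp5sl), and the NRF1, ETS and estrogen-related receptor types in 0. The 6 members with the YY1 type had a median prednisolone difference of 0.40, against 0.32 for members with a window but without it. Among them, Ndufs6 and Atp5j held the match 34 bases after and 88 bases before a start. They differed by only 0.31 and 0.30 (limma adjusted p = 0.235 and 0.145), and their stretches are not printed. For the NRF1 type the medians were 0.36 and 0.32. Around the YY1-type match, in capitals, 30 bases are given for the 3 members that rose and for Ndufs7, which lay just outside the threshold; each lies on the gene's strand, 25 to 36 bases after an annotated start, and the one in Atp5sl also lies 53 bases before another start.
Ndufa9, chr6:126849096-126849125, minus strand: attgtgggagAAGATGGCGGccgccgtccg
Ndufs4, chr13:114388045-114388074, minus strand: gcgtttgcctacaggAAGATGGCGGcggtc
Atp5sl, chr7:25619430-25619459, plus strand: gttacctggcAAGATGGCGGcgcccagagc
Ndufs7, chr10:80249463-80249492, plus strand: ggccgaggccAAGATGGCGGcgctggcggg

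The 250 bases upstream of Sdha and Cox6a1 are given as a contrast, since Sdha had a prednisolone difference of 0.50 and Cox6a1 one of -0.20. Both hold NRF1-type letters (capitals), 3 matches in Sdha and 2 in Cox6a1, and Cox6a1 also holds an ETS-type match on the other strand nearest its start.
Sdha, chr13:74350241-74350490, minus strand: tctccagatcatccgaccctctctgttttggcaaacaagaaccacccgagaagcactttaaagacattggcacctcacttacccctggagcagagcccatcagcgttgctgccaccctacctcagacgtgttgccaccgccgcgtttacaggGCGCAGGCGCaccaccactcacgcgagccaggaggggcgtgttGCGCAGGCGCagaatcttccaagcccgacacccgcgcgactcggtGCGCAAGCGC
Cox6a1, chr5:115348959-115349208, minus strand: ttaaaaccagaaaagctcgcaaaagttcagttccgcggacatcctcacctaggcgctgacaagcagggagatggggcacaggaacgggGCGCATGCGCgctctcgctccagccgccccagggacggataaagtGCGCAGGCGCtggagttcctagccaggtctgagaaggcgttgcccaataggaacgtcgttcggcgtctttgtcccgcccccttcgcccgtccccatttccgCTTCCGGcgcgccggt

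Other genes around the chain were examined as lists, to be read against the 3.22% of all clusters that rose and 3.17% that fell with prednisolone. The 5 mitochondrially encoded subunits measured had prednisolone differences from -0.22 to 0.05 with a median of 0.00, and 0 passed (limma). Their summed level was very high, from 20.35 to 20.42 (log2) in untreated and from 20.38 to 20.39 in prednisolone arrays. Near the top of the deposited scale a difference may not show, so these transcripts are not shown to be unchanged. Of 36 assembly factors outside the naming rule 4 rose, Acad9 (0.44), Atpaf2 (0.42), Ecsit (0.55) and Cox15 (0.57), with a median of 0.23. Of 17 genes of the citric acid cycle and pyruvate dehydrogenase 4 rose, Cs (0.67), Idh3a (0.64), Idh3g (0.64) and Fh1 (0.43). Their median was 0.41 with prednisolone, 0.39 with spironolactone plus lisinopril and 0.32 with eplerenone plus lisinopril, and all 17 lay above 0 in each. Against untreated replicate 1 alone the prednisolone median was 0.23, with 15 of 17 above 0, and Cs differed by 0.40.

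Of 18 genes of electron entry and coenzyme Q synthesis 6 rose and 1 fell, with a median of 0.22. Those that rose were Coq9 (0.72), Etfdh (0.60), Adck3 (0.58), Etfa (0.48), Coq3 (0.41) and Prodh (0.39), and Coq10b fell by 2.20 on the log2 scale (limma adjusted p = 0.0163). Of 11 mitochondrial carriers 1 rose, Slc25a20 (0.58), and of 74 mitochondrial ribosomal proteins 4 rose, with medians of 0.29 and 0.14. With so few called, neither count is read as differing from the 3.22% of all clusters that rose. Of 20 regulators of respiratory chain genes 1 rose and 1 fell, which is likewise not read as a result about the list. The coactivator Ppargc1b rose by 0.76 ± 0.13 (SE; limma adjusted p = 0.00839), and the corepressor Nrip1 fell by 1.36 ± 0.26 (adjusted p = 0.0148). Against untreated replicate 1 alone they differed by 0.54 and -1.49, and Coq10b by -3.53.

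Within a group, the members' spread was smallest with prednisolone. The median SD over 3 arrays was 0.16 untreated, 0.16 with spironolactone plus lisinopril, 0.19 with eplerenone plus lisinopril and 0.10 with prednisolone, against 0.15, 0.13, 0.14 and 0.12 over all clusters. Markers of other cells also moved with the groups. With prednisolone 2 of 9 macrophage, 2 of 4 fibroblast and 2 of 5 T cell markers fell. The summed macrophage level ran from 18.99 to 19.56 (log2) in untreated and from 18.68 to 18.91 in prednisolone arrays. It rested mostly on the brightest marker, Lyz2, which ran from 18.61 to 19.20 untreated and from 18.43 to 18.60 with prednisolone. Cd163 ran from 9.14 to 9.93 untreated and from 9.45 to 9.68 with prednisolone. The 8 slow-fibre markers, which bear on oxidative fibre content, had a median prednisolone difference of 0.37 with 0 past the threshold (limma; 0 at an unadjusted p under 0.05). Their array medians spread from -0.83 to 0.73 within and across groups. The 6 adipocyte markers had a median prednisolone difference of 1.21 and the 5 markers of regenerating fibres one of 0.93, with 0 and 1 past the threshold (limma; 1 of each at an unadjusted p under 0.05). All of these genes lay above 0. The adipocyte array medians ran from -1.31 to -0.51 untreated, -0.59 to 2.35 with spironolactone plus lisinopril, -0.82 to 0.24 with eplerenone plus lisinopril and -0.59 to 1.47 with prednisolone. Of the 4 brown fat markers 1 fell with prednisolone, Dio2, by 0.74 on the log2 scale (limma adjusted p = 0.00413), and 1 of 5 endothelial markers fell. The part of these cell types in the respiratory chain differences was not tested.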

How the data were processed

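Signals came from 12 single-channel Affymetrix arrays, after amplification from 100 ng of RNA and WT PLUS labelling per the labels' protocols. The authors deposited log2 signals, 1 per transcript cluster and array. RMA, Transcriptome Analysis Console and Affymetrix Expression Console are named, without an order, per the submitters' processing notes. Software versions, the annotation and the build: not given in the sources used here. Deposited values run from 1.61 to 19.93, so some exceed 16 through a step that is not described, and differences are on that deposited scale.

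Of 65587 clusters, GEO's platform annotation lists 32530, of which the 30412 with exactly 1 symbol were tested without a filter on dim clusters. A further 4 clusters that pair a matching symbol with another symbol were left out. RefSeq held the gene ID of 91 members, and 2 carry a newer symbol there (Atp5f1, now Atp5pb, and Atp5sl, now Dmac2).

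A model of 4 group means took in every array (limma 3.58.1, R 4.3.3), with eBayes without an intensity trend, a two-sided moderated test and Benjamini-Hochberg adjustment at 0.05. Residual degrees of freedom were 8 and prior ones 2.94, and the median SE of a difference was 0.129. The small number of arrays limits the precision, and an exact permutation test of 3 against 3 cannot go below p = 0.1. The procedure was tested on simulated data. Tables and plots were made in Python 3.11.15 with pandas 2.3.3.

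Groups were called not overlapping when the lowest array of a group exceeded the highest of the other. Named members are the 10 largest rises and falls past the threshold per comparison, the extremes of each comparison, the smallest and largest F-test p of each class, and a list of 33 core and isoform genes, of which 32 were measured; other members are given by counts and ranges, or were named after their values were seen. The members and gene lists were chosen with earlier results of these data known. Alternatives were other normalizations, spread models, filters and adjustment sets, array weights, the replicate number as a block, other untreated sets and leaving out each array.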

Additional observations from a re-analysis of the deposited data

How the results depend on the processing

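The number of clusters called (limma), out of all those tested, changed with the setting. For prednisolone against untreated it was 1942 of 30412 as reported, 2631 of 15206 above the median level and 584 with only the 2 groups fitted. For prednisolone against spironolactone plus lisinopril it was 250 as reported, 619 among brighter clusters and 990 with array weights. Against eplerenone plus lisinopril it was 185, 339 and 380, and in the F-test 588, 1128 and 1262. Counts of respiratory chain members past the limma threshold depended on the settings as follows. For prednisolone against untreated (12 as reported) the count was 25 among clusters above the median level. It was 3 when only the 2 groups were fitted, and 2 to 21 with an array left out. For prednisolone against spironolactone plus lisinopril (1 as reported) it was 2 after quantile normalization, 3 among brighter clusters, 5 with array weights, 0 with the replicate block, 0 when adjusted over all clusters, 0 with only the 2 groups fitted, and 0 to 1 with an array left out. For prednisolone against eplerenone plus lisinopril (0 as reported) it was 1 among brighter clusters, 1 with array weights, and 0 to 1 with an array left out. Both antagonist combinations against untreated gave 0, or 0 to 1 with an array left out, and their comparison with each other gave 0 in every setting run (limma; 2 at an unadjusted p under 0.05 as reported). The F-test (2 as reported) called 6 among brighter clusters, 7 with array weights, and 0 to 5 with an array left out. With the replicate block, prednisolone against untreated gave 13, and no other count but that above moved by over 1.5 times. The replicate numbers were not used as pairs, since only 4 of 18 same-numbered pairs of arrays correlated over 0.1 (range -0.237 to 0.157). The cause of these changes was not tested, beyond fewer arrays or clusters entering a fit.

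None of the 12 members called with prednisolone changed sign in any alternative. Ndufv1 and Cyc1 stayed past the threshold in 22 of 23 alternatives, and Atp5b and Ndufaf3 in 7 of 23 and 8 of 22. The exception for Ndufv1 and Cyc1 was the fit against untreated replicate 1 alone, where they differed by 0.71 and 0.82. With a single untreated array that fit has fewer arrays for every cluster, so it does not decide which members pass.

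The main limits are 3 arrays per group and untreated arrays that differ in neutrophil markers and, in replicate 2, macrophage markers. Another is a spironolactone plus lisinopril array high in fat markers. With these limits, and differences mostly under 0.5 on the log2 scale, a member that did not pass is not shown to be unchanged.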
